A study of Arabidopsis thaliana with 8 samples.

Results

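The m6A peaks of Arabidopsis thaliana seedlings that lack the demethylase ALKBH10B are described here, as the enrichment of each peak in antibody pull-down over input RNA. N6-methyladenosine (m6A) is adenosine that carries a methyl group on its base nitrogen, a mark found inside messenger RNA. The members are all rows of the list that the authors deposited for the mutant atalkbh10b-1, which holds 20696 peaks in 12443 genes, of 41217 peaks in the lists of both genotypes. The seedlings were 14 days old, of the ecotype Columbia-0 and of the genotype atalkbh10b -/-, and the labels describe 2 pull-down and 2 input libraries of them as biological replicates. The study holds 8 libraries in all, and the wild-type ones are not used in any value below. No transgene or further treatment is named. Poly(A) RNA was fragmented and pulled down with an antibody against m6A before libraries were built, and the input libraries were built from RNA that was not pulled down. Nothing says whether the 2 replicates were grown or sequenced apart, so the spread between them may be in part technical.

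In plants m6A is written by a complex of methyltransferase subunits and accessory proteins, is removed by demethylases of the AlkB family, and is bound by reader proteins with a YTH domain. ALKBH10B is an eraser of this kind in Arabidopsis and is known for its part in the transition to flowering. In Arabidopsis messenger RNA the mark is known to gather near the stop codon and in the 3′ untranslated region.

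Each value is a log2 enrichment that the authors computed per replicate, so 1 stands for a 2-fold excess of pull-down over input. Positions are bases counted along each gene as the list counts them. Which end is base 1, whether introns are counted, how enrichment was calculated and how libraries were scaled is not given in the sources used here. Enrichment sets pull-down against input and does not give the amount of an RNA. Nor does it directly give the share of that RNA that is methylated. A gene with no listed peak may have been unmethylated or scarce, and these cannot be told apart. The number of reads behind a value is unknown, since no counts were used. A list of peaks holds no expression levels, so the labelled tissue could not be checked against marker genes. A gene that overlaps another in the RefSeq table of assembly TAIR10.1 held 33.4% of the peaks. The protocol names a library kit that does not mark strand, so a peak in such a gene may belong to its neighbour. Among the genes named below these are MTA, MTB, ECT3, ECT5, ECT7, ECT8, AT4G14000, PSD3, TIL1, TED3, MGT3, AT4G29400, AT5G48770, RBL13, RUS1, AT1G22610, FAB1C, LDL3, LOX1, emb1507, UPL1, AT1G20920, AT3G22440, FPA, FKF1, LKP2, LNK2, ELF3, LHCB3, LHCA5, LHCB4.2, ARF1, ARF7, ABF1, SNRK2.3, ERS1, ARR1, DCL1, RRP44A, PIE1, BRM, KAN1, REV, CASP1, EFR, FLS2, CESA8, CESA1, CESA3 and CESA7.

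Most listed peaks were enriched at least 2-fold in both replicates. A log2 enrichment of 1 or more in both was found in 13369 peaks, 64.6% of the list, called repeatable below. They lay in 9943 genes, 79.9% of the genes listed, and 2500 genes had none. Replicate 1 alone reached 1 in 4848 peaks (23.4%), replicate 2 alone in 2412 (11.7%), and neither did in 67. At the 7260 peaks that reached 1 in only 1 replicate, the higher value had a median of 2.57 and the lower one a median of 0.00387. The threshold is that of this report, and 15119 peaks reached 1.5-fold in both replicates. A further replicate, R3, is named in the header, matches no labelled sample and was not used, so a peak below 1 in a replicate here may rest in part on that one. Just below the threshold, 455 peaks had a lower value from 0.9 to 1, with a median mean of 1.52, and just above it 691 peaks had one from 1 to 1.1, with a median mean of 1.49.

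The median log2 enrichment over all peaks was 2.48 in replicate 1, 2.28 in replicate 2 and 2.45 for their mean, whose quartiles were 1.44 and 3.94. Repeatable peaks had a median mean of 3.17 and the others 1.21, a gap that follows at least in part from the cut at 1 on the same values. At a 4-fold excess in both replicates 7781 peaks remained (37.6% of the list), at 16-fold 2024 (9.78%), at 256-fold 153, and at 1024-fold 13. Stronger peaks began at higher base numbers, with a median first base of 1221 among the repeatable peaks and of 1434.5 among those with a 16-fold excess in both replicates. Gene lengths were not used.

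Replicates differed widely at single peaks. The median difference between them was 1.79 on the log2 scale, or 1.28 among repeatable peaks and 2.81 among the rest. As repeatable peaks were cut on the same values, the gap between 1.28 and 2.81 follows in part from that rule. They stood within 1 of each other at 6630 peaks (32.0%) and more than 5 apart at 3148 (15.2%). Across all 20696 peaks Pearson's r between replicates was 0.0799 and Spearman's rho 0.117, and across the 13369 repeatable ones r was 0.286 and rho 0.336. These are descriptions across peaks, which share libraries and depth and are not independent. Peaks low in both replicates are almost absent, as only 67 had neither value at 1. A list of enriched peaks leaves such peaks out, and the repeatable ones were cut at 1 in both. These coefficients therefore do not measure how well the replicates agree over all RNA. Values below 0, where the pull-down had less than the input, stood in 1450 peaks in replicate 1 and in 2121 in replicate 2. No peak was below 0 in both, which the listing of enriched peaks may have fixed in advance.

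**Figure D1:**
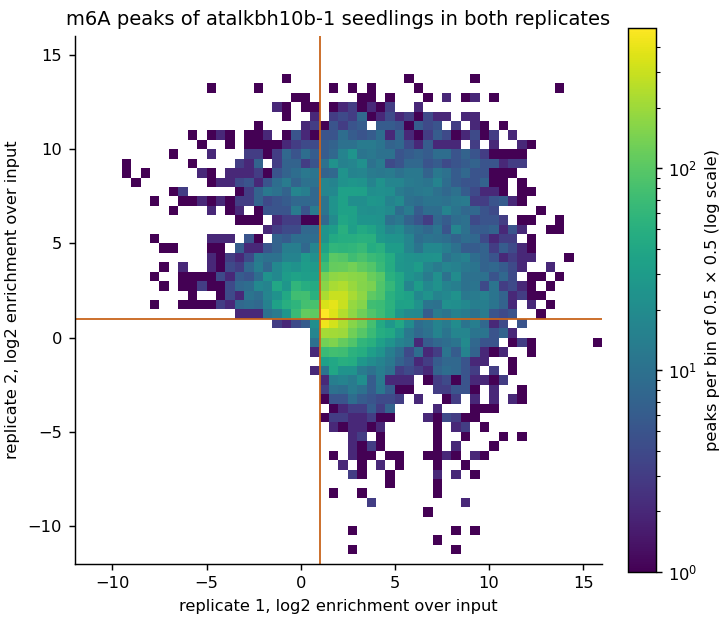
Log2 enrichment over input of the 20696 peaks of atalkbh10b-1 seedlings, replicate 1 on the horizontal axis and replicate 2 on the vertical axis, with the number of peaks per square of 0.5 by 0.5 as colour on a log scale. Lines mark the log2 value of 1 in each replicate, and the upper right field holds the 13369 repeatable peaks. The rest lie along each axis, below 1 in at least 1 replicate. Some are far below 0 there and many are just below 1. The square that begins at 1 in replicate 1 and 0.5 in replicate 2 holds 420 peaks.

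Given this spread, no peak had a mean enrichment that passed a test. With limma's moderated test against 0 and Benjamini-Hochberg adjustment over all 20696 peaks, 0 peaks (0%) had an adjusted p under 0.05, the smallest being 0.178, while 5663 had an unadjusted p under 0.05, all of them above 0. With limma's trend and robust prior 0 peaks passed and 8546 had an unadjusted p under 0.05. Peaks were listed by the authors for being enriched, so this test speaks of replicate error in 2 values and not of whether the list is methylated.

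The transcript of the mutated gene itself was listed. ALKBH10B is AT4G02940, a name given here from general knowledge because the RefSeq table has no symbol for it. A peak at bases 551 to 650 reached 1.61 in replicate 1 and 3.44 in replicate 2 (mean 2.52 ± 1.29, SD, n = 2), and one at bases 951 to 1050 had 1.90 and 0.66 (1.28 ± 0.87). The first of them is repeatable and the second is not. Both are close to or below the median of the list. As enrichment is not abundance, neither value checks the loss of the gene.

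All 5 matched writer genes carried a peak, 14 peaks in all, of which 8 were repeatable (57.1%). Their median log2 enrichment was 2.3, beside 2.45 over the whole list. MTA, the catalytic subunit, had 3 peaks, each of them repeatable. At bases 121 to 258 it had 5.67 and 1.71 in replicates 1 and 2, at bases 1934 to 2054 it had 3.25 and 2.97, and at bases 2055 to 2218 it had 4.04 and 10.71. The middle peak was the one at which its replicates came closest. MTB, the partner methyltransferase subunit, had 4 peaks, and its closest replicates were 2.40 and 2.68 at bases 721 to 914 and 1.97 and 1.76 at bases 1615 to 1790. Its outermost peaks, at bases 291 to 446 and 3032 to 3261, stayed below 1 in replicate 2.

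VIR, a large scaffold protein of the writer complex, had 4 peaks beyond base 3000, and the one at bases 5770 to 5910 had 2.08 and 2.03. FIP37, another accessory subunit, had a single peak at bases 904 to 1067 with 2.09 and 0.35, not repeatable. FIO1, a separate methyltransferase that modifies the U6 spliceosomal RNA, had the highest lower-of-both value of the writers, 6.21 and 6.69 at bases 1512 to 1676 (6.45 ± 0.34). The adjoining peak, at bases 1677 to 1828, had 8.49 in replicate 1 and 0.99 in replicate 2.

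Among 12 reader genes 9 were listed, with 14 of 19 peaks repeatable (73.7%) and a median of 2.46. ECT9, ECT10 and ECT11 had no peak. ECT2, a YTH-domain protein of developing organs, had 3 weak and even peaks: 1.15 and 1.36 at bases 1321 to 1550, 1.15 and 0.77 at bases 1881 to 2090, and 1.29 and 1.71 at bases 2472 to 2697. ECT3 had 1.26 and 1.64 at bases 1271 to 1431 and 3.86 and 1.07 at bases 1587 to 1767. ECT1, with 2.48 and 2.77, and ECT5, with 2.79 and 3.40, had a single peak each, and both peaks were repeatable. ECT7 (2.58 and 2.91, then 2.09 and 1.70) and ECT6 (4.42 and 1.03, then 7.06 and 1.28) had 2 repeatable peaks each, but the replicates of ECT6 lay far apart.

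ECT8 had 3 repeatable peaks, the last of them, at bases 2431 to 2530, the strongest, with 3.18 and 4.77. ECT4 had 1.90 and 9.39 at its first peak (bases 1301 to 1400) and was below 1 in at least 1 replicate at the other two. CPSF30, a polyadenylation factor of which a long form carries a YTH domain, had 2 peaks that were each high in a different replicate, 8.05 and 0.46 at bases 1772 to 1970 and 0.69 and 6.97 at bases 2031 to 2130. Neither of them is repeatable.

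Enrichment was higher at higher base numbers, pooled over genes whose lengths were not used. The median first base was 1136. The first 100 bases held the starts of 1667 peaks, while 4363 began between bases 501 and 1000 and 4383 between 1001 and 1500. Peaks that began at bases 101 to 250 had a median log2 enrichment of 1.73 and those at bases 251 to 500 one of 1.80, with 54.5% and 53.3% repeatable. From base 1501 onward medians lay between 2.91 and 3.11, and 68.9% to 73.6% of the peaks were repeatable. Both replicates had higher medians at higher base numbers. The median at bases 101 to 250 was 1.87 in replicate 1 and 1.61 in replicate 2, and that at bases 3001 to 5000 was 2.96 and 2.80. Across the 20696 peaks Spearman's rho between first base and mean enrichment was 0.216, or 0.179 and 0.163 in replicates 1 and 2, a description only.

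The lowest base numbers stood slightly above those that followed. The 1667 peaks that began within the first 100 bases had a median of 2.05, with 58.8% repeatable. Of these, 151 began at base 1 itself, with a median of 3.04 and 51.7% of them repeatable. How far a position lies from a stop codon or a gene's end cannot be given. Neither which end is base 1 nor whether introns are counted is known.

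**Figure D2:**
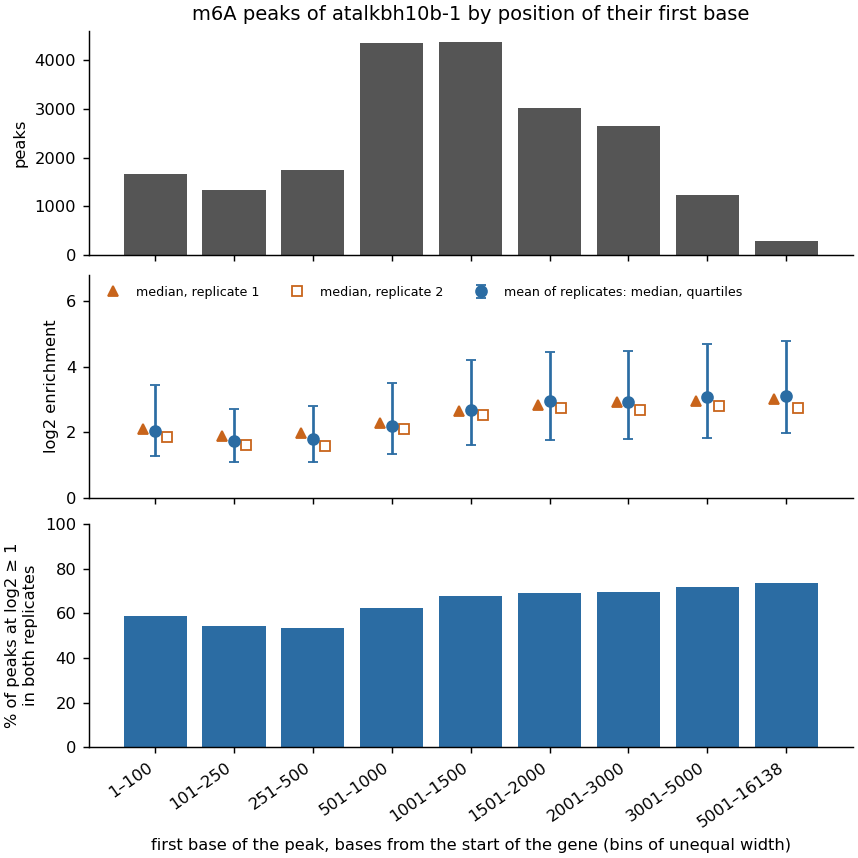
Peaks of atalkbh10b-1 seedlings by the base at which they begin, in bins of unequal width: the number of peaks (top), the median log2 enrichment over input with the quartiles of the replicate mean as bars and each replicate's median as a point (middle), and the share of peaks at a log2 of 1 or more in both replicates (bottom). Medians ran from 1.73 at bases 101 to 250 up to 3.11 beyond base 5000.

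The list's peaks were narrow, with a median width of 157 bases and quartiles of 130 and 176. Exactly 100 bases was the smallest width and held 2413 peaks (11.7%), and 5010 peaks (24.2%) were 150 to 160 bases wide. The peaks 151 to 160 bases wide had the highest median enrichment of the width classes, 3.12, and also the largest median difference between replicates, 2.36. Over all 20696 peaks Spearman's rho between width and mean enrichment was 0.00773. Of the 311 peaks wider than 300 bases 56.6% were repeatable, with a median of 1.84, the lowest of the width classes in both. The widest 4 were all repeatable. In AT1G20920 a peak of 758 bases, from 336 to 1093, had 3.64 and 2.02. NRPB1, the largest subunit of RNA polymerase II, had one of 708 bases, from 4961 to 5668, with 2.72 and 1.57. PERK10, a receptor-like kinase with an extensin-like domain, had one of 657 bases (2.06 and 1.27), and AT3G22440 one of 564 bases (2.32 and 2.01).

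Where a gene had several peaks, enrichment was on the whole higher at the last than at the first. A single peak was listed for 7149 genes, 2 for 3424, 3 for 1246, 4 for 377 and 5 or more for 247. Single peaks had a median log2 enrichment of 3.03 and were repeatable in 72.4%, whereas the peaks of genes with 5 or more had a median of 1.93 and 55.1%. Here the weaker class had the higher base numbers, with a median first base of 2421, beside 981 for single peaks. In the 5294 genes with several peaks the last peak had a median of 2.95 and the first one of 1.87. In replicate 1 these medians were 2.80 and 2.07, and in replicate 2 they were 2.81 and 1.71. The last peak was repeatable in 3914 of these genes (73.9%), and the first in 2804 (53.0%).

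Gene by gene, the last peak exceeded the first by at least 1 on the log2 scale in both replicates in 1193 genes (22.5%). It lay below it by as much in 279 (5.27%), while 3822 did neither. In replicate 1 alone the last peak was higher in 2253 genes and lower in 1166, and in replicate 2 alone in 2672 and 1187. Whether the counts in both replicates exceed those that unrelated replicates would give was not tested. In genes with 3 peaks the medians in order were 1.87, 1.69 and 3.01, and in genes with 4 they were 2.09, 1.58, 1.89 and 2.94, so inner peaks were no stronger than the first. Of the 3424 genes with 2 peaks, the last was the stronger in 61.0% in replicate 1 and in 65.5% in replicate 2. The same peak was the stronger in both replicates in only 53.4% of them. In genes with 3 and 4 peaks the strongest peak was the same in both replicates in 41.4% and 32.1%. The order within a single gene thus often differed between replicates.

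**Figure D3:**
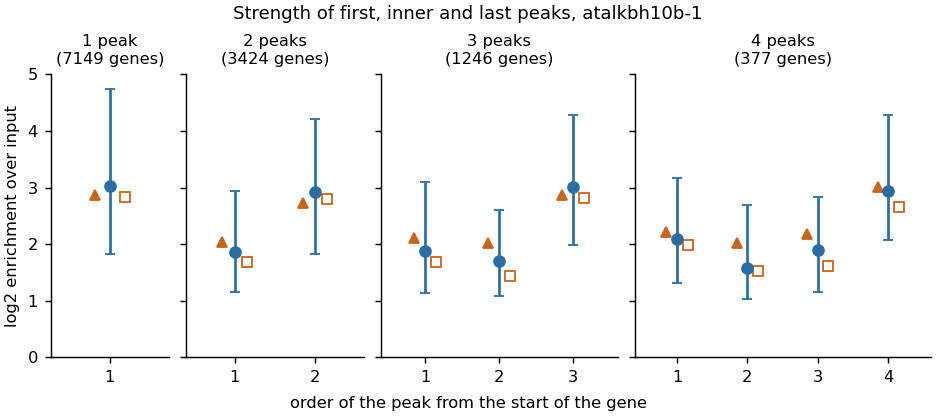
Median log2 enrichment over input of each peak of a gene, in order of base number as the list counts it, for genes with 1, 2, 3 or 4 listed peaks in atalkbh10b-1 seedlings. Circles with bars are the median and quartiles of the replicate mean, and triangles and squares the medians of replicates 1 and 2. The last peak lies near 3 in every panel, at 2.92, 3.01 and 2.94 for genes with 2, 3 and 4 peaks.

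Among the genes with the largest steps, values were far apart at both ends. PI4K GAMMA 7, a gene named for a phosphatidylinositol kinase, had 10.92 and 9.23 at its last peak (bases 2735 to 2889) and 1.33 and 0.44 at its first. LPAT2, an acyltransferase of phospholipid synthesis, had 11.13 and 10.84 at bases 1613 to 1716, and 3.84 and 2.04 at the peak that adjoins it. The step in LPAT2 thus lay between neighbouring stretches of the same transcript. TED3, a peroxisome biogenesis factor, LIG1, a DNA ligase, and FAB1C, a phosphoinositide kinase, followed, with 9.52 and 9.84 at the last peak of FAB1C and 2.72 and 1.96 at its first.

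The opposite order was found in fewer genes. NF-YC9, a subunit of nuclear factor Y, had 0.84 and 1.79 at its last peak (bases 1340 to 1494) and 9.25 and 9.59 at its first (bases 34 to 147). PSD3, a phosphatidylserine decarboxylase, had 4.1 and 3.47 at the last and 11.41 and 10.81 at the first, which begins at base 1. TT7, the flavonoid 3′-hydroxylase, had −0.50 and 4.21 at the last and 9.97 and 11.13 at the first. NAC053, a NAC transcription factor, had −5.36 and 2.58 at the last and 8.28 and 8.97 at the first. In each of these 4 genes the first peak lay above 8 in both replicates.

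Among the genes with the most repeatable peaks, 6 are named here, with 7 or 8 each. Ties at 7 were cut by gene identifier. The 2 genes with 11 peaks held 14 repeatable ones, 7 of them in UPL1, so another gene with 7 is not named. SYD, a chromatin remodelling ATPase of the SWI/SNF class, had 15 peaks between bases 48 and 10935, of which 8 were repeatable. Its first peak had 8.43 and 1.57, and the others had means between 0.92 and 2.79. UPL2 and UPL1, closely related ubiquitin ligases whose reads may be divided between them, had 8 of 12 and 7 of 11 repeatable peaks. At the last peak UPL2 had 3.27 and 3.09 and UPL1 had 5.09 and 2.35. The splicing helicase gene emb1507 had 7 of 9, with 4.67 and 5.35 at its first peak, and AT1G48090 also had 7 of 9. In AT3G50380 all 7 peaks were repeatable, from 8.67 and 7.30 at bases 1536 to 1690 to 2.62 and 2.61 at bases 7401 to 7500.

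Within a gene of 5 or more peaks the mean of both replicates was even in some genes and steep in others. The means of the 8 peaks of EIF4G, a translation initiation factor, lay between 0.98 and 1.62, those of the 5 peaks of the lipoxygenase gene LOX1 between 1.58 and 2.24, those of EMB1030 between 1.19 and 1.87, and those of the chloroplast gene ATCG01130 between 0.61 and 1.24. Single replicates ran wider, in EIF4G from −0.37 to 2.25 in replicate 1 and from −0.01 to 2.32 in replicate 2. In AT1G22610, by contrast, the peak at bases 1745 to 1903 had 9.19 and 11.60, while the means of the other 5 peaks ran from −0.92 to 2.52. LDL3, a gene of the lysine demethylase-like family, had 7.49 and 6.97, 10.48 and 7.12, and 9.07 and 9.51 at its last 3 peaks, but 2.90 and −2.06 at its second.

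**Figure D4:**
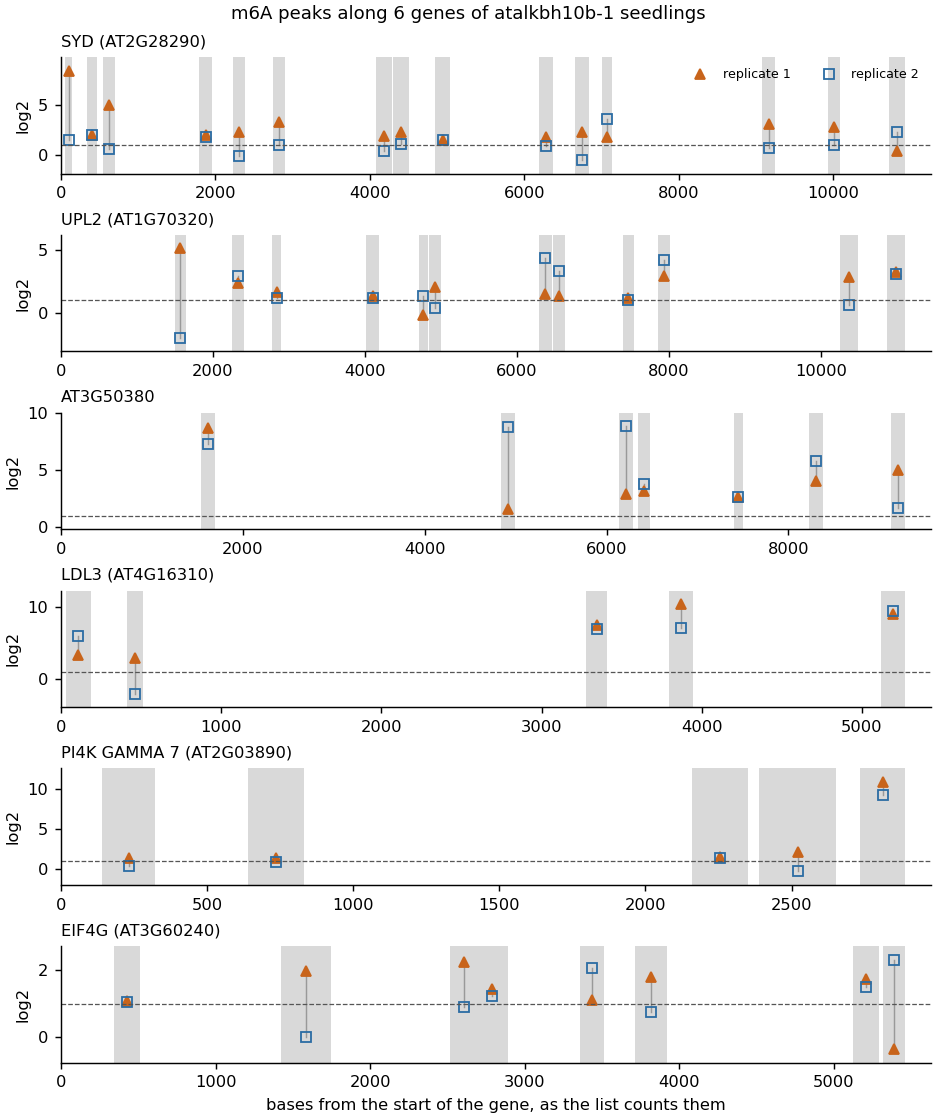
Peaks along 6 genes of atalkbh10b-1 seedlings, with the extent of each peak as a grey band in bases as the list counts them and the log2 enrichment over input of replicate 1 (triangles) and replicate 2 (squares) joined by a line. The dashed line marks 1. SYD and UPL2 have 8 repeatable peaks each and AT3G50380 has 7, as do other genes not shown. PI4K GAMMA 7 and LDL3 have a steep profile, and EIF4G has means close to each other.

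The strongest peak of the list lay in AT4G14000, a gene with no symbol, at bases 938 to 1096, where its log2 enrichment was 13.59 in replicate 1 and 13.50 in replicate 2 (13.54 ± 0.07, SD, n = 2). Its lower value stood more than 2 above every other gene's. Next by the lower value, among genes with a symbol, LPAT2 and PSD3, already given, were followed by AGL16, a MADS-box factor, with 12.47 and 10.38 at bases 852 to 1060, and TIL1, the catalytic subunit of DNA polymerase epsilon, with 10.33 and 10.63 at its last peak, bases 6323 to 6480. CRK27, a cysteine-rich receptor-like kinase, had 10.35 and 10.13 at a single peak. TED3 had 11.38 and 9.95 at bases 1309 to 1498, and MGT3, of the magnesium transporter family, had 9.89 and 10.97. Of genes with no symbol, AT1G57790 (10.74 and 11.09), AT4G29400 (10.46 and 10.86) and AT4G38200 (10.42 and 10.76) followed AT4G14000. Replicates of these peaks lay at most 2.09 apart.

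At the other extreme, a peak could be among the strongest in 1 replicate and depleted in the other. OTP86, a factor of organelle RNA editing, had 8.49 in replicate 1 and −11.05 in replicate 2 at bases 1497 to 1651. ABCG37, an ABC transporter of the plasma membrane, had 9.14 and −10.33 at bases 334 to 486. RBL13, of the rhomboid-like family, had −4.93 and 13.50. WES1, an auxin-conjugating enzyme, had 8.19 and −10.07, AT5G48770 had 7.42 and −10.87, and AT4G13710 had −9.11 and 9.48. The means of these peaks lay between −1.73 and 4.28 and describe neither replicate. Among peaks with a mean of 3 or more, those of VAMP721, a SNARE of secretion (3.42 in both), ABCA1, an ABC transporter (3.63 and 3.64), RUS1 (3.02 in both), PDS3, the phytoene desaturase of carotenoid synthesis (4.11 in both), AT1G52370 (3.42 and 3.41) and FRS7 (3.94 and 3.93) were the closest between replicates.

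By kind of gene, 20320 peaks lay in 12203 protein-coding genes, 109 in 80 long noncoding RNA genes with a median of 2.11, 31 in 28 other noncoding RNA genes with a median of 1.54, and 50 in 28 pseudogenes with a median of 2.18. A further 182 peaks lay in 101 genes that the table does not hold. Both peaks in microRNA genes were looked up after their values were seen. MIR162a had 7.16 and 4.11 at bases 531 to 630, a repeatable peak, and MIR414 had 0.94 and −0.53. The 5 nuclear chromosomes had medians between 2.39 and 2.51 and repeatable shares between 63.9% and 65.3%.

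Organelle transcripts had lower medians. Of 49 peaks in 26 chloroplast-encoded genes 19 were repeatable (38.8%, beside 64.6% of the whole list), with a median of 1.1. Of 18 peaks in 16 mitochondrial genes 9 were repeatable (50.0%), with a median of 1.4. The highest in both replicates were ATMG00060 (2.59 and 2.26), ATMG00830 (2.42 and 2.21), ATMG00670 (3.52 and 1.84), ATCG00170 (3.15 and 1.74), ATCG01010 (3.45 and 1.73) and ATCG01000 (2.09 and 1.66). None of the 67 organelle peaks had a mean above 2.68. The difference from nuclear genes was not tested.

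Lists of genes by role were then read from the same peaks, beside the shares of the whole list. Over 21 lists 448 genes were matched, of which 331 were listed with 715 peaks, and 445 of these peaks were repeatable (62.2%), with a median of 2.19. The members were chosen with earlier results of these data known, and no list is called different from the rest.

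Flowering-time genes were listed in part. Of 58 genes 36 had a peak, and 38 of their 69 peaks were repeatable (55.1%), with a median of 2.72. EMF1, which represses the floral programme, had the highest lower value, 8.74 and 9.52 at its last peak (bases 3844 to 4007), beside 2.96 and 1.76 at its first. FPA, FCA and FY belong to the autonomous pathway, which lowers the repressor FLC through RNA processing. FPA had 8.73 and 8.27 at bases 3028 to 3180, FCA had 7.77 and 9.97 at bases 1091 to 1217, and FY had 7.59 and 9.99 at bases 2256 to 2435. All 3 were at or above 7.59 in both replicates.

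SWN, a Polycomb methyltransferase, had the lowest mean of the flowering list, with −0.98 and 1.21 at its first peak. FT, the mobile flowering signal, had a single peak at bases 19 to 175 with 5.43 in replicate 1 and exactly 0 in replicate 2, so it is not repeatable. The sources do not say if an exact 0 was measured or fills a gap. SPL3 and SPL9, phase-change factors, had no listed peak, and neither did the floral identity genes LFY and AP1 nor the repressor FLC.

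Of 18 clock genes 12 were listed, and 16 of their 22 peaks were repeatable (72.7%; median 2.46). The F-box gene LKP2 had 8.80 and 3.99, the coactivator LNK2 had 6.01 and 3.93, the pseudo-response regulator PRR5 had 5.46 and 3.45, each at a single peak, and ELF3, of the evening complex, had 4.12 and 3.40 at its last of 3. TIC was the weakest, with 1.08 and 0.60 at its second peak. CCA1, LHY, PRR7, PRR9, LNK1 and CHE had no listed peak, while RVE4 had 2 and RVE8 had 1, all of them repeatable.

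Photoreceptor and light-signalling genes had 37 of 60 peaks repeatable (61.7%; median 2.05) in 22 of 27 genes. The phytochrome genes PHYC and PHYB were strongest at their last peaks, PHYC with 6.16 and 6.86 at bases 3591 to 3690 and PHYB with 7.43 and 4.96 at bases 3814 to 3968. UVR8, the UV-B receptor, had 4.43 and 6.52 at its last peak. FHY3, a factor of phytochrome A signalling, had its highest value at the first of 6 peaks instead, 9.84 and 5.65 at bases 85 to 244. PHYA had −6.00 and 3.63 at bases 3064 to 3218, the lowest mean of the group.

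Nuclear genes of the photosystems, antennae and Rubisco combined weak enrichment with close replicates. Of 47 genes 41 were listed, and 37 of their 51 peaks were repeatable (72.5%). Their median log2 enrichment was 1.43, beside 2.45 over the whole list, and the median difference between replicates was 0.335, beside 1.79. LHCB4.1, a minor antenna protein, had 3.60 and 3.81, and PETC, the Rieske protein of the cytochrome complex, had 2.56 and 2.69. LHCB3 (8.92 and 3.23 at its last peak) and LHCA5 (4.27 and 2.67) were stronger and less even. LHCB4.2 had 1.34 and −1.43 at its last peak. Several members are near-identical copies of each other, and their peaks are uncertain.

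The control transcripts chosen in practice for stable expression were also even, with 20 of 24 peaks repeatable (83.3%), a median of 2.07 and a median difference between replicates of 0.464. All 16 genes had a repeatable peak. GAPC1, of glycolysis, had 3.04 and 2.91, ACT7, an actin, had 2.25 and 2.71, and SAND, of vesicle trafficking, had 6.64 and 5.82 at its last peak. PP2AA3, a phosphatase subunit, had 2.94 and 10.33 at its last peak and 1.77 and −0.61 at its first. Heat shock and chaperone genes had a median of 1.53, with 16 of 25 peaks repeatable (64.0%) and a median difference of 0.573. HSP90.1 had 3.16 and 2.99, HSFA1D, a heat shock factor, had 2.16 and 2.48, and the lumenal chaperones BIP2 and BIP1 had 2.38 and 2.1, and 2.55 and 2.05, but are near-identical copies, so their peaks are uncertain. HSP70 had 2.90 and −3.31 at its last peak.

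Among hormone pathways, auxin genes had 38 of 62 peaks repeatable (61.3%; median 2.18) in 24 of 27 genes. By the lower of both values the highest were response factor genes, with 9.80 and 6.04 at the single peak of ARF17 and 6.47 and 5.90 at the last of ARF1. ARF3 had 6.77 and 4.28, and ARF7 3.96 and 8.86, at their last peaks. Other response factor genes, ARF16 and ARF19, had no repeatable peak. ARF6 had 1.56 and −1.88 at its first peak.

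Abscisic acid signalling genes had 14 of 24 peaks repeatable (58.3%; median 1.59) in 15 of 23 genes. The phosphatases that hold the pathway in check gave 3 of the 4 highest genes by the lower of both values. These were ABI2 with 10.62 and 3.36, HAB2 with 3.25 and 2.71 and HAB1 with 2.62 and 6.28. The other was the bZIP factor ABF1 with 3.15 and 3.36. The kinase SNRK2.3 had 1.56 and −2.78. All 12 ethylene genes were listed, with 14 of 27 peaks repeatable (51.9%; median 1.82). EIN3, the pathway's transcription factor, had 4.15 and 3.75 at its last peak, the kinase CTR1 had 5.00 and 3.13, and the receptors ERS2 and ERS1 had 3.17 and 5.48, and 3.17 and 3.02. Another receptor, ETR2, had 3.26 and −3.05.

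Gibberellin, brassinosteroid, cytokinin and jasmonate genes had 25 of 48 peaks repeatable (52.1%; median 2.03) in 26 of 35 genes. ARR1, a cytokinin response regulator, had 7.72 and 7.94 at a single peak, the closest replicates among these genes. The cytokinin receptors AHK3 and AHK2 had 4.35 and 5.06, and 10.87 and 3.85, at their last peaks. The DELLA gene GAI showed the reverse order, with 2.75 and −3.61 at its last peak and 6.87 and 10.04 at its first.

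Genes of RNA silencing and decay had medians at or above that of the list. The small RNA pathway had 21 of 28 peaks repeatable (75.0%) and a median of 3.11, with a median difference between replicates of 3.17. AGO6 had 9.68 and 7.51, the RNA polymerases RDR2 and RDR6 had 9.31 and 6.19, and 6.94 and 5.43, and DCL1, which processes microRNA precursors, had 4.39 and 9.82 at its first peak. Another peak of RDR6, at bases 3203 to 3330, had 2.46 and −4.75. Of 20 genes 15 were listed, without DCL3, AGO5, AGO7, AGO9 and RDR1.

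In mRNA decay 16 of 18 genes were listed, with 35 of 49 peaks repeatable (71.4%; median 2.45). The exonucleases XRN4 and XRN3 had 11.13 and 5.84, and 5.11 and 5.02, at their last of 4 peaks, the exosome subunit RRP44A had 5.38 and 7.29 at its last of 4, and the decapping enzyme DCP2 had 5.22 and 7.85 at its last of 2. DCP5, another decapping factor, had 0.97 and −0.73 at its first.

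Chromatin and DNA methylation genes held 90 peaks in 22 of 29 genes, 50 of them repeatable (55.6%; median 2.47). CMT3, a DNA methyltransferase, had 6.74 and 9.20, LDL1, a histone demethylase-like gene, had 10.44 and 5.90 at its first peak, PIE1, a remodelling ATPase, had 7.10 and 5.75 at its last of 6, and ROS1, a DNA demethylase, had 6.09 and 4.87 at its last of 7. BRM, a SWI/SNF ATPase, had −4.82 and 1.61 at its seventh of 8.

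Patterning genes included many with no listed peak, beside 117 of 448 genes over all lists. In the shoot meristem and leaf polarity list 10 of 21 genes had a peak, and 8 of 18 peaks were repeatable (44.4%; median 2.77). KAN1 had 8.48 and 7.22 at its last peak, the class III HD-ZIP genes CNA and REV had 6.85 and 7.14, and 3.63 and 3.92, at theirs, and KAN2 had 3.60 and 3.22. The first peak of KAN1 had 2.16 and −0.78. STM, WUS and CLV3 had none, while CLV1 had 2 peaks, 1 of them repeatable, and CLV2 had 1, which was repeatable. Of 18 root genes 8 were listed, with 13 of 16 peaks repeatable (81.3%; median 2.65). SHR, which specifies the endodermis, had 7.23 and 8.67, the nitrate transporter NRT1.1 had 4.33 and 5.70, COBL9, of root hairs, had 8.54 and 3.06, and CASP2, of the Casparian strip, had 2.94 and 2.73, while CASP1 had 1.58 and −2.38. Of 11 trichome genes 5 were listed, with 9 of 12 peaks repeatable (75.0%; median 3.13). STI had 4.04 and 2.92, the kinesin gene ZWI 2.62 and 4.08, the WRKY factor TTG2 1.96 and 7.64, and TTG1, a WD40 protein, 1.62 and 4.21 at its last peak and 1.29 and −0.50 at its first.

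Immunity genes had 19 of 32 peaks repeatable (59.4%; median 2.43) in 19 of 23 genes. The receptors of bacterial patterns EFR and FLS2 each had a single strong peak, EFR with 9.72 and 6.47 at bases 3120 to 3267 and FLS2 with 5.66 and 9.04 at bases 3536 to 3692. SAG101 had 7.53 and 4.67, the resistance gene RPS4 had 5.75 and 4.59 at its last peak, and EDS1, a partner of SAG101, had −3.46 and 3.07. Cellulose synthase genes had 12 of 23 peaks repeatable (52.2%; median 1.75) in 7 of 10 genes. CESA8 had 7.21 and 8.22 at its last peak, above CESA1 (3.10 and 3.22), CESA6 (2.37 and 2.65) and CESA3 (2.16 and 2.50) at theirs. CESA7 had 1 peak, not repeatable, and CESA4, CESA9 and CESA10 had none. CESA2 had 1.35 and −0.41 at its first peak.

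Over all lists, the last peak exceeded the first by at least 1 in both replicates in 44 of 189 genes with several peaks and lay below it in 11, beside 22.5% and 5.27% of all such genes. Among the lists with 10 or more such genes, the last peak was higher in 2 and lower in 3 of 19 flowering-time genes, higher in 5 and lower in 1 of 19 chromatin genes, and higher in 6 and lower in 1 of 18 auxin genes. It was higher in 5 and lower in 2 of 17 light-signalling genes, and higher in 3 and lower in 2 of 13 gibberellin, brassinosteroid, cytokinin and jasmonate genes. It was higher in 5 and lower in 0 of 12 mRNA decay genes, and higher in 2 and lower in 0 of 10 photosystem genes. The 11 genes with a lower last peak were PIF3, FKF1, GAI, RGA, FHY3, LDL1, FVE, FCA, DCL1, ECT4 and PIN4.

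**Figure D5:**
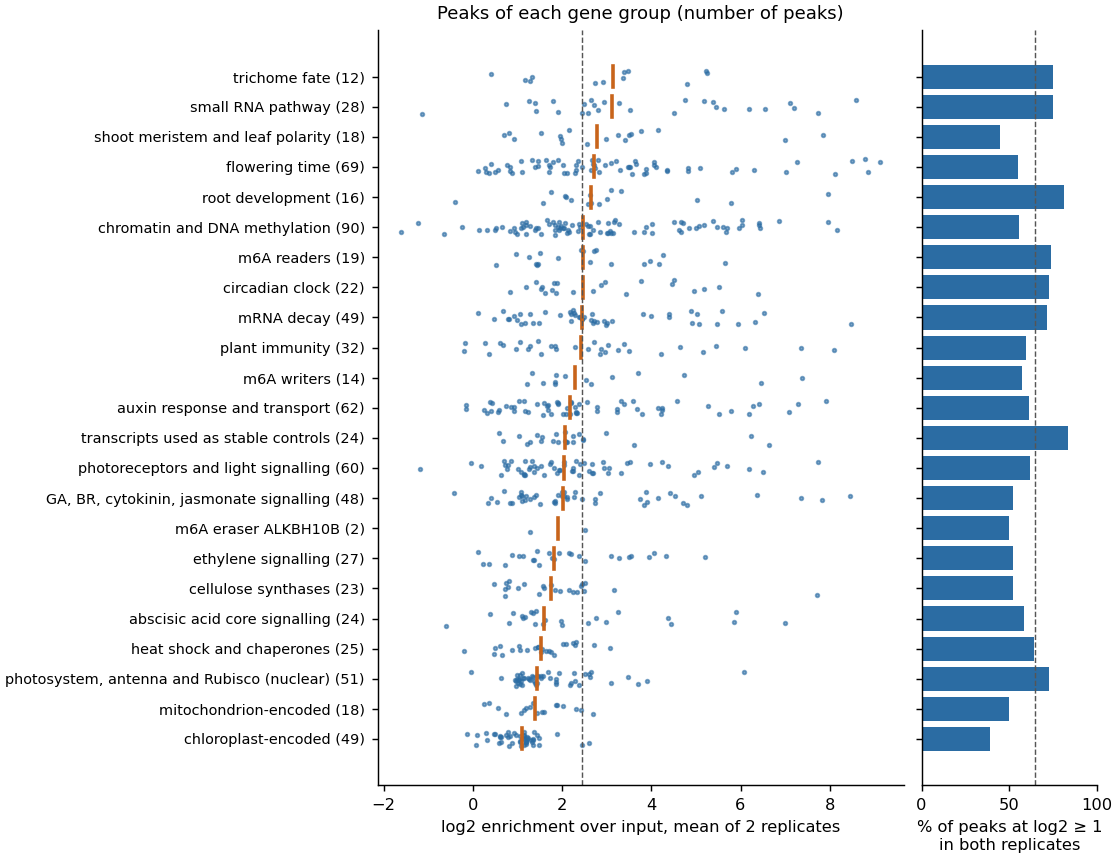
Mean log2 enrichment over input of every peak in 21 gene groups and in both sets of organelle genes of atalkbh10b-1 seedlings (left; each point is a peak, the orange bar the group's median, the number of peaks in brackets), and the share of peaks at a log2 of 1 or more in both replicates (right). Dashed lines mark the median (2.45) and share (64.6%) of the whole list. Organelle and photosystem genes have the lowest medians.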

How the data were processed

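The deposited peak list of the mutant gives, per the file headers, a gene, a start, an end and a log2 enrichment per replicate. The submitters' processing notes name the aligner TopHat2 2.0.14, the package edgeR and, as genome build, TAIR10, and say nothing of how each was applied. Poly(A) RNA, fragmentation, an m6A antibody and elution with free m6A are named in the labels' protocols. How the authors called peaks, with which thresholds, and how they scaled libraries is not stated, and depth is unknown.

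The log2 values were used as deposited. The 2 columns of the replicate R3, 1 in each list, fit no labelled sample and were left out, although the series' design text speaks of 3 replicates. A peak was repeatable at a log2 of 1 or more in both replicates. The mean was tested against 0 with limma 3.58.1 in R 4.3.3, with Benjamini-Hochberg adjustment over all peaks and a threshold of 0.05. A run on simulated data came first. It was required to find large shifts only at a spread far smaller than that of these values. It therefore does not show that a peak could pass at the spread seen here. The rest used Python 3.11.15, numpy 2.4.6, pandas 2.3.3, scipy 1.17.1 and matplotlib 3.10.9.

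RefSeq's table of the assembly TAIR10.1 covered 12342 of the 12443 genes, 5945 of them with a symbol, and none of its coordinates are printed. It matched 448 list genes, and 15 list names had no match, HAKAI and the other AlkB genes among them. A list of cytosolic ribosomal proteins was planned and not formed, because the table has no product names. Named genes are ALKBH10B, the m6A machinery, FT, SPL3 and SPL9, the highest peaks, those with the largest and smallest replicate difference, the widest, the genes with most repeatable peaks or the least and most even ones, and 4 high and 1 low gene per list. The members, lists and rules were chosen with earlier results of these data known. Alternatives were other thresholds, centring, dropping exact zeros, overlapping or organelle genes, leaving out each replicate and other limma settings. One gene that the rule names is not reported here, and no sequence is printed.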

Additional observations from a re-analysis of the deposited data

How the results depend on the processing

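Repeatable peaks numbered between 13055 and 15119 with a 1.5-fold threshold, centring, exact zeros or organelle genes left out, or abutting peaks joined, and 15781 to 18217 with either replicate alone. They numbered 7781 at a log2 of 2, and 8846 in 6533 genes without genes that overlap another, where fewer genes are counted. The median log2 enrichment of 2.45 was 2.28 to 2.48 with either replicate alone, 1.51 for the lower of both, and 2.28 without peaks 150 to 160 bases wide, an alternative chosen after seeing the data. The last peak was higher in 1193 genes and lower in 279; these were 2253 to 2672 and 1166 to 1187 with either replicate alone, where only 1 value must differ, 557 and 153 where first and last were taken among repeatable peaks, and, chosen after seeing the data, 741 and 163 in genes with 2 peaks and 981 and 235 with starts at least 500 bases apart. Repeatable peaks of the lists numbered 445, and 223 at a log2 of 2. With replicate 1 alone the count was over 1.5 times larger in 6 lists, with 14 for the writers, 2 for ALKBH10B, 23 for abscisic acid, 25 for ethylene, 39 for gibberellin and the hormones beside it and 19 for cellulose synthases, and with replicate 2 alone in the meristem list, with 14. With limma 0 peaks passed under each of the 5 alternatives run, with 4324 to 8546 at an unadjusted p under 0.05 and a smallest adjusted p between 0.118 and 0.229. The midpoint of peaks, with a median of 1216.5, stayed within 1.5 times under all alternatives run. No paired analysis was possible because the list holds 1 genotype with 1 enrichment value per replicate, so no groups can be paired. Relative position along the transcript was planned and not run, and neither which end is base 1 nor whether introns are counted is known. With 2 values per peak and no counts, single peaks are known no better than the replicate difference, whose median is 1.79.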
